A study of Mus musculus with 10 samples.

Results

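Nuclear genes for subunits of respiratory chain complexes I to IV were followed in obstructed mouse kidneys with and without Padi4. The members were the protein-coding genes of the deposited table whose symbols begin with Ndufa, Ndufb, Ndufc, Ndufs or Ndufv and a number, with Uqcr, or with Cox4 to Cox8 and a letter, plus Cyc1, Sdha, Sdhc and Sdhd. This gave 67 of the 54532 genes in the table, of which 22046 are protein coding. By complex, 35 belong to complex I, 3 to complex II, 9 to complex III and 19 to complex IV, and Cox7a2l encodes a factor that joins complexes III and IV. Ndufa4 and Ndufa4l2 were counted with complex IV, where the Ndufa4 protein resides despite its name.

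The libraries were made from kidney messenger RNA 10 days after unilateral ureteral obstruction, in which the ureter of 1 kidney is closed off and that kidney becomes inflamed and scars. The wild-type group (WT) and the Padi4-knockout group (KO) had 5 libraries each, all from obstructed kidneys. Padi4 encodes peptidylarginine deiminase 4, which turns arginine of histones into citrulline and is known for its role in neutrophil extracellular traps. The labels give no strain, age or sex, and do not say whether the gene was removed from every cell or whether each library came from its own animal, so p-values measure the spread between these libraries. Unobstructed kidneys were not analysed here.

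As background, complex I takes electrons from NADH and complex II takes them from succinate, both pass them to ubiquinone, complex III hands them to cytochrome c, and complex IV gives them to oxygen. Complexes I, III and IV pump protons as they work, and ATP synthase uses the gradient. Cells of the proximal tubule are rich in mitochondria because they reabsorb most of the filtered sodium and glucose. Complex II is built from nuclear genes alone, whereas the cores of complexes I, III and IV also need subunits encoded in mitochondrial DNA. The genes described here belong to the nuclear share of the chain but are not all of it. The rule for symbols does not take Sdhb of complex II or Ndufab1 of complex I.

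Nuclear respiratory genes are textbook targets of nuclear respiratory factor 1 (NRF1), and promoter windows are shown to make visible what a part of the members share in sequence. RefSeq windows (GRCm38.p6) from 250 bases before to 50 bases after the start site were found for 52 of the 67 members. The NRF1 motif GCGCANGCG, searched on both strands with overlapping matches allowed, was present in 13 of the 52, or 25.0%, against 7.03% of all 27025 genes with a window and 14.7% of the 9897 that passed the expression filter. The stricter form GCGCATGCG was present in 5 members (9.62%), against 1.95% and 3.94% of these genes. Stretches of 100 bases are given for 5 genes that hold the motif, written 5′ to 3′ on the strand of the gene, with motif matches in capitals. They end directly before the start site, except in Cox6a1, where the stretch lies further upstream.
Ndufa8: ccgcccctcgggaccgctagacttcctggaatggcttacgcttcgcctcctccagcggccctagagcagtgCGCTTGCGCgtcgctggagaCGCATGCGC
Ndufa11: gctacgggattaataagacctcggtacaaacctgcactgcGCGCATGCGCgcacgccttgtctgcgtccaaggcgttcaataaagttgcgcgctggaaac
Cox6a1: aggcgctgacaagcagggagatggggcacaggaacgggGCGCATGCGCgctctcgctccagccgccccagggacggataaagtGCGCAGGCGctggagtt
Sdha: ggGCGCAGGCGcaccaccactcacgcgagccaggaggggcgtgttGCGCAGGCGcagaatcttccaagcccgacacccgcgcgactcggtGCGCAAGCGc
Ndufb4: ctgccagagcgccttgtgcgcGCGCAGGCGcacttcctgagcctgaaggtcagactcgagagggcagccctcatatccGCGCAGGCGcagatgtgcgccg
These lie at chr2:36049339-36049438 (minus strand) for Ndufa8, chr17:56717662-56717761 (plus) for Ndufa11, chr5:115349059-115349158 (minus) for Cox6a1, chr13:74350241-74350340 (minus) for Sdha and chr16:37654369-37654468 (minus) for Ndufb4, in GRCm38.p6. Ndufa8, Ndufa11 and Cox6a1 carry the strict form. The start sites are those of RefSeq, and the gene models of Ndufa8, Sdha and Ndufb4 in the deposited table begin within the stretch shown. The stretches of Sdha and Ndufb4 match only with another base at the sixth place, 3 times in Sdha and at 2 places in Ndufb4.

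Other promoter motifs named as background for respiratory genes were less frequent or as frequent among the 52 members as the strict NRF1 form. The ETS motif CCGGAAGT was found in 4 members (7.69%), above the 4.31% of all genes with a window and below the 8.85% of those that passed the filter. The YY1 motif AAGATGGCG was found in 5 (9.62%, against 1.64% of all and 3.52% of those that passed) and the CRE motif TGACGTCA in 4 (7.69%, against 2.03% and 3.34%). Median GC content was 57.2% over the members' windows and 60.7% over those of the genes that passed the filter. A match says only that these letters stand in the window.

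Depth and labels were examined before the comparison. Values were FPKM, reads scaled by gene model length and by a total per library, and the reads behind them came to 15002922 to 16886945 per library, of which the members took 75776 to 129389, or 0.505% to 0.795%. Padi4 had 6 to 47 reads per library, with 0.358 ± 0.183 FPKM in wild type and 0.256 ± 0.164 in knockout (SD, n = 5 each; exact two-sided permutation p = 0.373), so its level did not tell the genotypes apart and the groups are those of the labels. The total by which the authors' values were divided was 13557357 in wild-type 1, below its 15390728 reads, and 15421954 to 16682649 in the others, so FPKM in wild-type 1 are higher than its reads alone would give. In wild-type 1 the genes of mitochondrial DNA took 8.11% of reads, against 3.18% to 5.79% in the other libraries, and the summed level of 15 proximal tubule markers was 18604 FPKM. Wild-type 1 therefore stood apart, and knockout 5 did so for white fat markers. All 15 proximal tubule markers passed the filter, and their sums spanned 3745 to 18604 FPKM in wild type and 5456 to 7779 in knockout. In bulk tissue, fewer cells of a type and less RNA per cell cannot be told apart.

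The members were among the well-expressed genes of these kidneys. The expression filter, a mean level of 1 FPKM or more, was reached by 63 of the 67. These were all members of complexes I, II and III, 15 of 19 in complex IV, and Cox7a2l. The mean level per length had a median of 45.4 FPKM in complex I, 81.9 FPKM in complex III and 108 FPKM over the 11 usual subunits of complex IV, and ran from 50.5 FPKM (Sdhc) to 117 FPKM (Sdhd) in complex II. Cox6a1, a small subunit of complex IV, had the highest mean of the members at 422 FPKM, and Ndufb2, an accessory subunit of the membrane arm of complex I, the lowest of complex I at 2.55 FPKM.

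**Figure D1:**
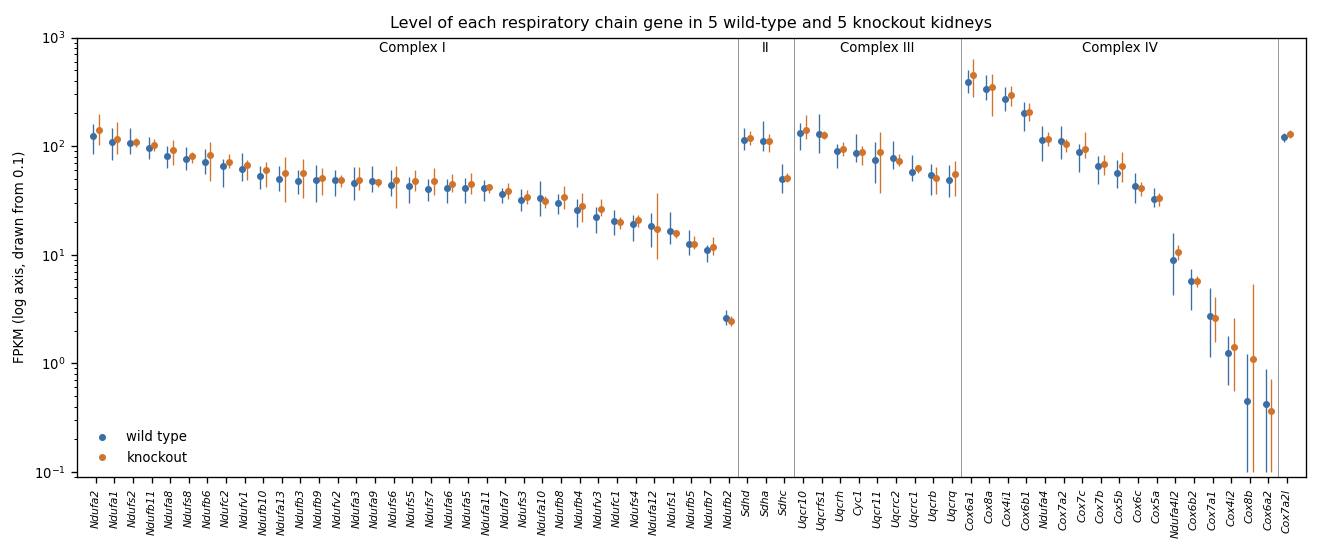
Mean level of each member with a read, in FPKM on a log axis, for wild type (blue) and knockout (orange); lines span the lowest to the highest of 5 libraries, and values below 0.1 FPKM are drawn at 0.1. The ranges of the genotypes overlap for each gene drawn, and the alternative subunits of complex IV lie at or below 9.83 FPKM on average.

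The low level of Ndufb2 came with a long gene model. FPKM divides by the model's length, which is 5628 bases for Ndufb2 where its principal transcript has 455, and per principal transcript the level would be 31.6. In 19 of the 67 members the model was more than 2 times as long as the principal transcript, including Ndufb7 (11.4 FPKM, 82.4 per principal transcript), Cox6c (41.8 and 296) and Uqcrq (52.2 and 236). The highest and lowest subunits of complex I were 51.5 times apart per gene model and 6.33 times apart per principal transcript. The length is the same in every library, so it cancels from a ratio of FPKM, but a long model lowers the FPKM and so shrinks a difference on the log2(FPKM + 1) scale. For Ndufb2 that difference was -0.062, and -0.082 with a pseudocount of 0.1.

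The genotypes were then compared for every gene at once. None of the 63 members tested passed an adjusted p of 0.05 (limma with Benjamini-Hochberg adjustment over 13435 genes), and none of all genes tested did (0%), the smallest adjusted p being 0.976. At an unadjusted p under 0.05, no member was higher and none lower in knockout, where 2.05% of all genes were higher and 2% lower. The 2 groups of libraries did not separate for any member, and they did for 0.744% of all genes. That share is too low to set the 63 members apart from other genes. Log2 differences, as knockout mean minus wild-type mean of log2(FPKM + 1), had a median of 0.10 over the members, beside 0.0051 over all genes tested, and ran from -0.20 (Ndufa12) to 0.31 (Ndufa4l2). These medians are not matched on length. Of the protein-coding genes tested, 568 were no longer than the median member and 11716 were longer.

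The knockout mean of log2(FPKM + 1) was above that of wild type in 53 of the 63 members, where 51.6% of all genes tested were above 0. The members move together between libraries, so 53 genes are not 53 independent observations. By mean FPKM, 49 were higher in knockout, since Ndufb5, Sdha, Uqcrfs1 and Cox7a1 had a higher mean on the log scale only. Counts of higher members below use the log scale. Without wild-type 2, the library with the lowest level for 46 of the members, 34 of 63 were higher in knockout and the median was 0.0080. Without knockout 3, the highest for 28 members, 39 were higher and the median was 0.012. Without wild-type 1, the highest for 25 members, 59 were higher and the median was 0.17. With the trend over GC content and length removed, 49 were higher and the median was 0.051. On the log2(FPKM + 1) scale, all 63 intervals of 95% lay between -0.90 and 0.94, within log2 of 2 in either direction. On the same scale, 49 lay within log2 of 1.5. Because the added 1 shrinks differences of low genes, these limits do not bound the fold change of low members. For Cox4i2, with a mean of 1.33 FPKM, the SE was 0.23 on this scale. It was 0.40 with a pseudocount of 0.1 and 0.45 with limma-voom.

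**Figure D2:**
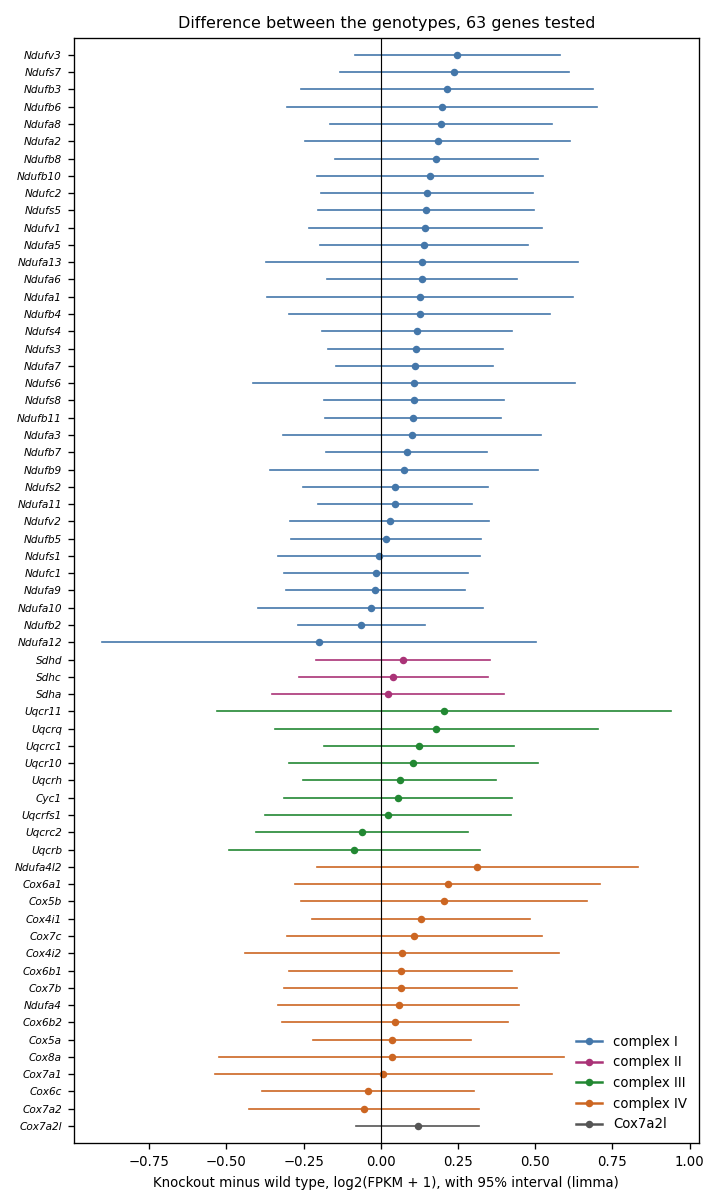
Knockout minus wild-type difference of each of the 63 members tested, on the log2(FPKM + 1) scale with its 95% interval from limma, ordered within complex. Every interval includes 0, and 53 of the 63 points lie to the right of it.

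In complex I, 29 of 35 subunits were higher on average in knockout and none passed the test, with a median difference of 0.11 that ranged from 0.022 to 0.20 when 1 library was left out. The matrix arm, which holds the NADH and ubiquinone sites, had a median of 0.11 (13 of 16 higher), and the proton-pumping membrane arm 0.13 (16 of 19 higher). Ndufv3, an accessory subunit beside the flavoprotein that oxidises NADH (chr17:31520115-31531326, plus strand), had the smallest p of the members. It read 27.5, 15.9, 19.5, 26.5 and 23.0 FPKM in wild-type 1 to 5 and 28.7, 22.8, 32.4, 24.3 and 24.7 in knockout 1 to 5. Wild-type 2 and 3 were the lowest and knockout 3 the highest, and the remaining libraries of both groups overlapped. Its means were 22.5 ± 4.85 FPKM in wild type and 26.6 ± 3.92 in knockout (SD, n = 5 each), a difference of 0.25 (SE 0.15) with a 95% interval of -0.084 to 0.58 (limma adjusted p = 0.976, unadjusted 0.130).

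Ndufs7 carries the iron-sulfur cluster that hands electrons to ubiquinone. It had 49.6, 31.1, 34.1, 48.2 and 39.2 FPKM in wild type and 50.3, 41.4, 62.4, 35.6 and 50.04 in knockout, in the order of the library numbers. The highest value again belonged to knockout 3 and the lowest to wild-type 2, with knockout 4 among the lower wild-type values. The difference of 0.24 (SE 0.17) did not pass the test (limma adjusted p = 0.976). Ndufa8, an accessory subunit that faces the intermembrane space and whose promoter stretch is given above, had 101, 63.4, 73.0, 92.3 and 71.8 FPKM in wild type and 104, 82.1, 113, 67.7 and 94.0 in knockout. Its groups overlapped in the same way, and its difference was 0.19 (SE 0.16). Ndufb8, a membrane-arm accessory subunit, had means of 30.1 ± 5.25 FPKM in wild type and 34.4 ± 6.58 in knockout (SD, n = 5 each) and a difference of 0.18 (SE 0.15).

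Ndufa2, an accessory subunit of the matrix arm, had the highest level per length of complex I at 123 ± 28.3 FPKM in wild type and 140.0 ± 35.9 in knockout (SD, n = 5 each), with a difference of 0.18 (SE 0.20). Ndufb2, the lowest, had 2.63 ± 0.383 FPKM in wild type and 2.47 ± 0.205 in knockout (SD, n = 5 each), a difference of -0.062 (SE 0.093). Ndufa12, an accessory subunit of the matrix arm, was chosen for description after its values were seen, because its libraries did not follow the rest of the complex. It had 15.2, 23.6, 11.8, 16.7 and 24.5 FPKM in wild type and 14.9, 10.8, 15.1, 9.05 and 36.8 in knockout. Knockout 5 was the highest and knockout 4 the lowest of all 10 libraries, and wild-type 2, low for most members, was among the 3 highest. Its difference of -0.20 (SE 0.32) had a 95% interval of -0.90 to 0.50, and without knockout 5 it reached an unadjusted p under 0.05 in the lower direction. In that run 237 of all 13435 genes tested did so.

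Complex II gave the smallest median difference of the 4 complexes, 0.041, with mean log2(FPKM + 1) higher in knockout by less than 0.1 in all 3 members. Sdha, the flavoprotein that oxidises succinate (chr13:74322254-74350280, minus strand), had 169, 90.1, 94.1, 100.1 and 103 FPKM in wild type and 130.0, 105, 118, 88.8 and 112 in knockout. Wild-type 1 lay far above the other wild-type libraries, and the remaining 9 libraries overlapped. The group means were 111 ± 32.8 FPKM in wild type and 111 ± 15.3 in knockout (SD, n = 5 each), the difference was 0.023 (SE 0.17), and its 95% interval was -0.35 to 0.40. Sdhc and Sdhd anchor the enzyme in the inner membrane and form the ubiquinone site. Sdhc had 67.9, 36.7, 46.4, 48.4 and 51.7 FPKM in wild type and 52.8, 47.0, 56.7, 48.3 and 49.2 in knockout, and Sdhd had 146, 92.5, 107, 109.8 and 117 and 138, 117, 125, 103 and 117. In both, wild-type 1 was the highest library and wild-type 2 the lowest, so that the wild-type range enclosed all knockout libraries. Their differences were 0.041 (SE 0.14) and 0.072 (SE 0.13). The median of the complex ranged from -0.042 to 0.16 when 1 library was left out.

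In complex III, 7 of 9 subunits were higher on average in knockout, with a median difference of 0.061 that ranged from -0.015 to 0.19 with 1 library left out. Uqcrc1, a core protein on the matrix side (chr9:108936633-108949623, plus strand), had 83.6, 47.9, 50.2, 56.0 and 54.5 FPKM in wild type and 67.5, 59.0, 65.9, 56.6 and 63.8 in knockout. Apart from wild-type 1, the highest of all, every wild-type library was below every knockout library, by 56.0 against 56.6 FPKM at the closest. How many of all genes separate without wild-type 1 was not counted. With wild-type 1 the difference was 0.12 (SE 0.14) (limma adjusted p = 0.976), and without it the unadjusted p fell under 0.05 and the adjusted p did not. In that run 916 of all 13435 genes tested had an unadjusted p under 0.05, and Uqcrc1 was the only member among them. Uqcr10, a small subunit, had the highest level of the complex at 133 ± 29.8 FPKM in wild type and 142 ± 31.5 in knockout (SD, n = 5 each), and Uqcrq, another small subunit, the lowest at 48.8 ± 14.6 FPKM in wild type and 55.6 ± 16.9 in knockout (SD, n = 5 each). Their differences were 0.11 (SE 0.18) and 0.18 (SE 0.24).

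Uqcr11, a further small subunit, had the largest spread within groups of the members tested, a pooled SD of 0.63 on the log2 scale. It had 103, 62.9, 55.5, 109 and 45.5 FPKM in wild type and 103, 80.3, 136, 36.7 and 87.7 in knockout. The lowest value was in knockout 4, followed by wild-type 5, and the highest in knockout 3, so that both extremes were in knockout. The difference of 0.20 (SE 0.34) had a 95% interval of -0.53 to 0.94, the widest of complex III. The Rieske iron-sulfur protein gene Uqcrfs1, chosen after its values were seen, showed the opposite, with 130.0 ± 42.6 FPKM in wild type and 127 ± 7.77 in knockout (SD, n = 5 each). Its wild-type spread came from wild-type 1 and 2, the highest and lowest of the 10 libraries.

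In complex IV, 13 of 15 tested subunits were higher on average in knockout, with a median difference of 0.064, which ranged from -0.020 to 0.15 with 1 library left out. Cox6a1, whose promoter stretch holds the strict NRF1 motif, had 508, 311, 312, 486 and 323 FPKM in wild type and 482, 389, 632, 284 and 488 in knockout. Knockout 4 was the lowest and knockout 3 the highest, with the wild-type libraries between. The means were 388 ± 99.97 FPKM in wild type and 455 ± 129 in knockout (SD, n = 5 each), and the difference was 0.22 (SE 0.23) with a 95% interval of -0.28 to 0.71. Cox5b, a zinc-binding subunit on the matrix side, had means of 57.2 ± 16.6 FPKM in wild type and 65.5 ± 16.3 in knockout (SD, n = 5 each) and a difference of 0.20 (SE 0.21). Cox4i1, the subunit that binds ATP as a brake on the enzyme, had means of 270.0 ± 54.5 FPKM in wild type and 295 ± 49.8 in knockout (SD, n = 5 each) and a difference of 0.13 (SE 0.16). Cox5a, the lowest of the usual subunits by FPKM, had 32.7 ± 5.06 FPKM in wild type and 33.4 ± 3.73 in knockout (SD, n = 5 each). Its difference was 0.038 (SE 0.12). Per principal transcript Cox5a stood at 108, the lowest usual subunit was Cox7b at 81.6 and the highest Cox4i1 at 587.

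Cox7a2l, whose protein links complexes III and IV into supercomplexes (chr17:83501919-83514333, minus strand), varied least. It had 109, 114, 131, 123 and 123 FPKM in wild type and 119.8, 127, 140.2, 141 and 125 in knockout. Wild-type 1, high for most members, was the lowest library here, and knockout 3 and 4 were the 2 highest. The means were 120.2 ± 8.62 FPKM in wild type and 131 ± 9.36 in knockout (SD, n = 5 each), with a pooled SD of 0.10 on the log2 scale, the smallest of the members tested. The difference was 0.12 (SE 0.091) with a 95% interval of -0.081 to 0.32 (limma adjusted p = 0.976).

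Several subunits of complex IV have an alternative isoform, and these were far below the usual one in every library. Ndufa4l2, a gene known to be induced under low oxygen, had 4.24, 15.9, 8.65, 8.28 and 7.98 FPKM in wild type and 10.6, 8.93, 12.2, 11.6 and 9.90 in knockout. Wild-type 2 was the highest and wild-type 1 the lowest of all 10, and the knockout libraries lay between. Its share of the summed level of Ndufa4 and Ndufa4l2 was 8.17% ± 5.70 in wild type and 8.42% ± 0.989 in knockout (SD, n = 5 each), with 17.7% in wild-type 2 and 2.70% in wild-type 1. The difference of 0.31 (SE 0.24) was the largest of the members, with a 95% interval of -0.21 to 0.83 (limma adjusted p = 0.976), and without wild-type 2 its unadjusted p fell under 0.05. In that run 446 of all 13435 genes tested had such a p. Ndufa4l2 is also known as a pericyte gene. The summed level of 9 pericyte and vascular smooth muscle markers was 67.4 to 99.2 FPKM in wild type and 73.3 to 98.7 in knockout, and its part in this result was not tested.

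Cox4i2, the isoform of lung and airway that serves oxygen sensing, made up 0.501% ± 0.281 of the Cox4 level in wild type and 0.501% ± 0.363 in knockout. Cox6b2, best known from testis, made up 2.91% ± 0.970 and 2.74% ± 0.263, and Cox7a1, the isoform of heart, muscle and brown fat, 2.55% ± 1.44 and 2.49% ± 0.851 of their pairs. The differences were 0.069 (SE 0.23) for Cox4i2, 0.047 (SE 0.17) for Cox6b2 and 0.0085 (SE 0.25) for Cox7a1, and those of their usual partners were 0.064 (SE 0.16) for Cox6b1 and -0.055 (SE 0.17) for Cox7a2. Cox4i2 rested on 78 reads over the wild-type libraries and 89 over the knockout libraries, and Cox7a1 on 114 and 115. Cox6a2, the muscle form of Cox6a1, had 23 and 20 reads and was below the filter. The testis genes Cox7b2 and Cox8c had no read in any library.

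**Figure D3:**
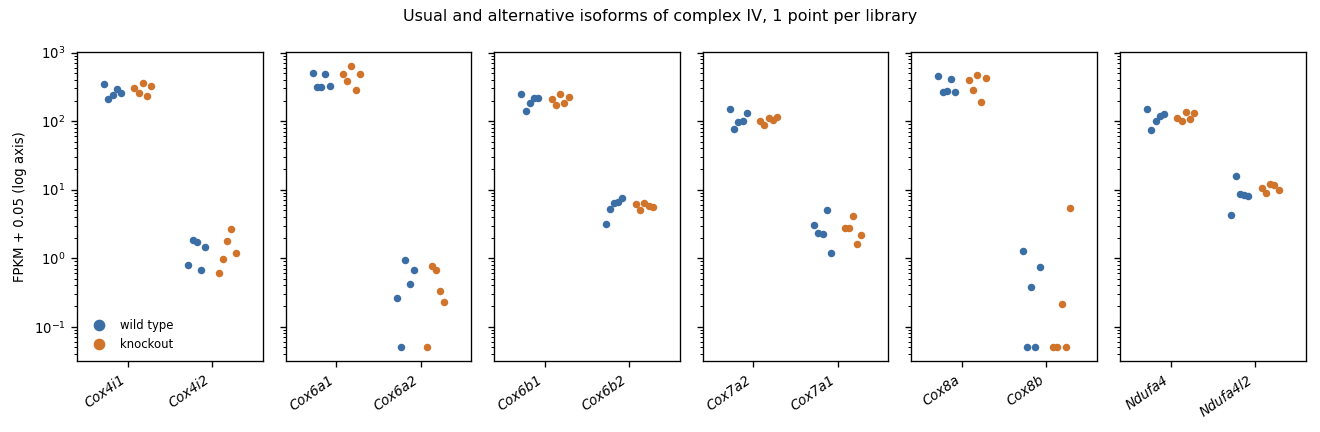
Level of 6 alternative isoforms of complex IV beside the usual one, in FPKM plus 0.05 on a log axis, with 1 point per library. The usual isoforms lie well above the alternatives in all 10 libraries, and Cox8b stands out in 1 knockout library at 5.36 FPKM.

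Cox8b, the form of heart, muscle and brown fat, was below the filter with 12 reads over the wild-type libraries and 33 over the knockout libraries (chr7:140898945-140900446, minus strand). It had 1.23, 0, 0.333, 0 and 0.684 FPKM in wild type and 0, 0, 0.167, 0 and 5.36 in knockout. Nearly all of the knockout level came from knockout 5, and 5 of the 10 libraries were at 0. In the same library, among markers chosen after their values were seen, Ucp1, the uncoupling protein that defines brown fat, was at 1.69 FPKM against 0 to 0.188 FPKM elsewhere, and Cidea at 2.85 FPKM against 0 to 0.634 FPKM. Adipoq, a gene of all fat cells, was at 21.6 FPKM there and at 0.184 to 8.54 FPKM in the others. The sum of 7 brown fat markers was 3.19 to 9.31 FPKM in wild type and 4.45 to 8.38 in knockout, with Elovl3 at 0. Knockout 5 had the highest sum of the knockout libraries, and wild-type 2 the highest of all, of which Dio2 gave 7.54 FPKM. Dio2 was at 1.17 FPKM in knockout 5, and the median deviation of the 2 brown fat markers past the filter was -0.20 there. The sum of 8 white fat markers was 110 to 346 FPKM in wild type and 101 to 495 in knockout. Among 12 striated muscle markers Ckm, Myh1, Myh2 and Myh4 were at 0 in all libraries, and the sum did not exceed 2.70 FPKM. The part of fat in this level was not tested.

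The members varied between libraries together, over a wider range than the difference between the genotypes. Each member's deviation from its own mean over 10 libraries was taken on the log2(FPKM + 1) scale, and the median over members was 0.32 in wild-type 1, -0.41 in wild-type 2, -0.17 in wild-type 3, 0.086 in wild-type 4 and 0.0081 in wild-type 5. In knockout 1 to 5 it was 0.084, -0.11, 0.31, -0.14 and 0.10. Wild-type 1 and knockout 3 were thus the high libraries, wild-type 2 the low one, and the groups overlapped. The order was much alike in complexes I, III and IV, where wild-type 1 stood at 0.26, 0.43 and 0.32, wild-type 2 at -0.41, -0.52 and -0.40, and knockout 3 at 0.33, 0.25 and 0.31. In complex II, knockout 1 (0.24) stood above knockout 3 (0.11). These are deviations from 1 common mean and share their libraries, so they were not tested.

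**Figure D4:**
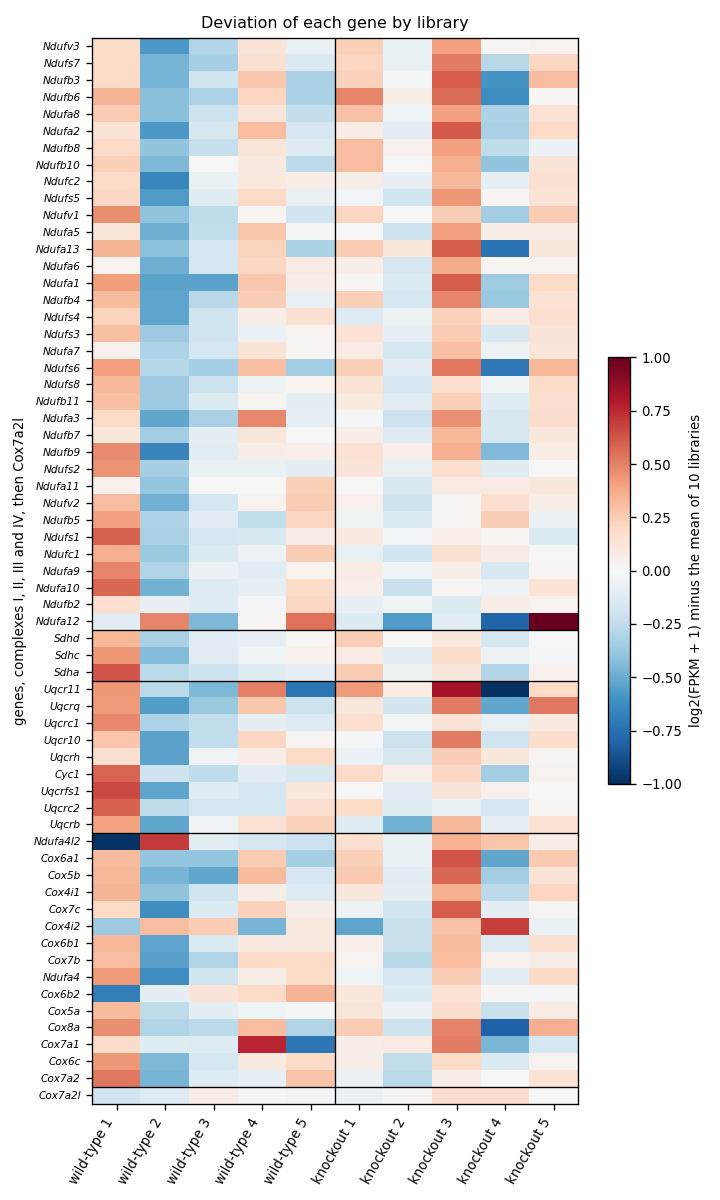
Deviation of each tested member (rows, by complex) from its mean over 10 libraries (columns), on the log2(FPKM + 1) scale, with colours limited to ±1. Wild-type 1 and knockout 3 are mostly red and wild-type 2 mostly blue; Ndufa12, Ndufa4l2, Cox4i2, Cox6b2 and Cox7a2l depart from this.

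The spread was wider in wild type than in knockout for 46 of the 63 members, with a median SD of 0.34 against 0.20 on the log2 scale. Without wild-type 1 this held for 39 members, with a wild-type median of 0.29. The pooled SD had a median of 0.29 over the members and 0.19 over all genes tested. That difference in spread was described and not tested. The members and all genes tested were not matched on level, and the added 1 shrinks the spread of low genes. The count of genes with a wider spread in wild type was made for the members only, so it is not shown to be particular to them.

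Other gene sets moved with the members in the same libraries. Markers of the proximal tubule had a median deviation of 1.22 in wild-type 1 and -0.66 in wild-type 2, but 0.095 in knockout 3, where the members stood at 0.31. The subunits encoded in mitochondrial DNA stood at 1.21 and -0.61 in wild-type 1 and 2, and at -0.23 in knockout 3. Protein-coding genes no longer than the median member (1251 bases) stood at 0.00066, -0.25, -0.094, 0.13 and -0.011 in wild-type 1 to 5. In knockout 1 to 5 they stood at 0.024, -0.070, 0.26, -0.11 and 0.14. Longer protein-coding genes had medians between -0.010 and 0.013 in every library. Members longer than the median member stood at 0.36 in wild-type 1, -0.40 in wild-type 2 and 0.19 in knockout 3, and the shorter members at 0.27, -0.43 and 0.39. The part of tubule content in the members' levels was not tested, and removal of the trend over GC content and length took the median genotype difference from 0.10 to 0.051.

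**Figure D5:**
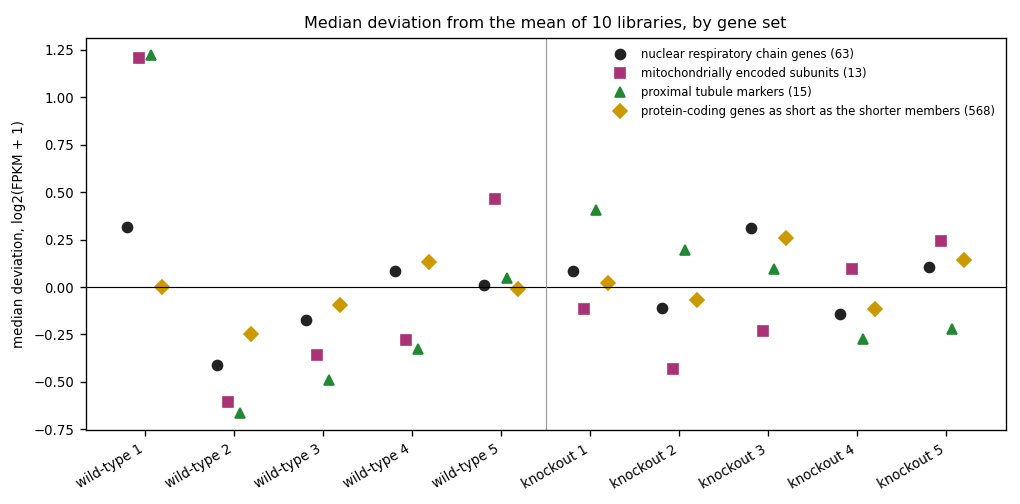
Median deviation from the 10-library mean, on the log2(FPKM + 1) scale, for 4 gene sets in each library. The respiratory chain genes (black) stand at 0.32 in wild-type 1, where tubule and mitochondrially encoded genes are above 1.2, and at 0.31 in knockout 3, where short genes stand at 0.26.

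The members were also described by GC content, without a test and with length not held fixed. The members were split into 3 bins of 21 by GC content of the principal transcript. The median difference was 0.038 in the lowest bin (42.0% to 49.0%, 15 of 21 higher in knockout). It was 0.10 in the middle bin (49.4% to 55.3%, 17 of 21) and 0.12 in the highest (55.4% to 60.7%, 21 of 21). The share of all genes higher in knockout was not counted by bin. The members of a bin move together, so these counts are not shown to be particular to them. In wild-type 5 the lowest bin deviated by 0.069 and the highest by -0.14, and in knockout 4 by -0.088 and -0.28, while knockout 3 had 0.19 and 0.36. Protein-coding genes in general showed the same tilt, with 0.11 at low and -0.18 at high GC content in wild-type 5, 0.13 and -0.20 in knockout 4, and -0.084 and 0.14 in knockout 3.

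A pair of complex IV genes, chosen after their values were seen, is given as an example of high and low GC content and supports no comparison. Cox8a, a small subunit of the membrane, has a coding sequence of 210 bases with 64.8% GC, and Cox7b, likewise a small membrane subunit, one of 243 bases with 47.3% GC. Their gene models are 545 and 1214 bases long. Their coding sequences, from the GENCODE M21 transcripts on GRCm38, are given with runs of 4 or more G or C in capitals, of which Cox8a has 9 and Cox7b 5.
Cox8a: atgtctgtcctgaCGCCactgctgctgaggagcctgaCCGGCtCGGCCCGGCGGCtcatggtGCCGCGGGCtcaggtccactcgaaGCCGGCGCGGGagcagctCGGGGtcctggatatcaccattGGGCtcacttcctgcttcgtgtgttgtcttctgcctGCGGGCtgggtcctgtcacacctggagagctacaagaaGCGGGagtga
Cox7b: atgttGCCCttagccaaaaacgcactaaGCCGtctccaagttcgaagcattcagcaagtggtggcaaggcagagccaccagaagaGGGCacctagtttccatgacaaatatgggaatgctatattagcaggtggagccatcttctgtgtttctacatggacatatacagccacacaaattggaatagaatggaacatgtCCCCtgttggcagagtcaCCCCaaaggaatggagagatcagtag
They come from chr19:7215158-7217616 (minus strand) and chrX:106015700-106022450 (plus strand). Cox8a had 454, 267, 275, 409 and 267 FPKM in wild type and 394, 283, 465, 188 and 423 in knockout. Its lowest libraries were knockout 4 and then wild-type 2 and 5. Cox7b had 82.0, 45.0, 53.5, 75.5 and 75.7 FPKM in wild type and 67.4, 54.3, 82.4, 68.2 and 68.9 in knockout. Here wild-type 5 and knockout 4 were near the middle or above it, and only wild-type 2 and 3 and knockout 2 were low. The genotype differences were 0.035 (SE 0.26) for Cox8a and 0.064 (SE 0.17) for Cox7b, which do not follow the order of the 3 bins.

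No gene of the lists around the complexes passed the adjusted threshold. Of 16 ATP synthase genes, 13 were higher on average in knockout, with a median of 0.085, and their median deviations by library were 0.24 in wild-type 1, -0.42 in wild-type 2 and 0.23 in knockout 3. Of 36 tested assembly factors, 32 were higher, with a median of 0.076. Surf1, which assembles complex IV, had 16.3 ± 2.57 FPKM in wild type and 19.7 ± 1.36 in knockout (limma adjusted p = 0.976; unadjusted 0.0281), and Uqcc3, which assembles complex III, 24.9 ± 4.63 and 33.4 ± 8.81 FPKM. Of 13 electron carriers beside the complexes, 9 were higher, with a median of 0.060. The 13 subunits encoded in mitochondrial DNA had a median of -0.15, with 3 higher in knockout. Their sums were 23532 to 74223 FPKM in wild type and 26309 to 41267 in knockout. Of the 3, mt-Nd3 had 69.3 ± 83.4 FPKM in wild type and 175 ± 146 in knockout (SD, n = 5 each; limma adjusted p = 0.976; unadjusted 0.0415), and reads of mitochondrial genes are uncertain where nuclear copies share them.

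Some members share exon bases with a neighbouring gene, and how the authors counted such reads and whether by strand is not stated in the sources. By share of the member's exon bases, the largest overlaps were 39.0% of Ndufb6 with Smim27, 375 of 1251 bases of Ndufa13 with Tssk6 and 19.7% of Uqcrc2 with Pdzd9, all on opposite strands, and 19.5% of Ndufb9 with Gm49356 on the same strand. By bases, the longest was 616 bases of Ndufb5 with Mrpl47, or 12.3% of its exons, on the opposite strand. A share of bases does not give the share of reads affected, and the effect on the levels of these 5 members was not tested. Of the members, 3 lie on chromosome 4 with Padi4, the nearest being Ndufs5 at a distance of 17.0 Mb.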

How the data were processed

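Messenger RNA of 10 obstructed kidneys was sequenced, and groups and replicate numbers were taken from the sample titles. The aligner was HISAT2 2.0.5, per the submitters' processing notes (genome build, annotation, counter and use of strand: not given in the sources used here). No unit is named in the deposited table. Its values were taken as FPKM that the authors computed, since value times gene length gave whole reads, within 0.01, for 100% of values. The design named a test of raw counts if these were deposited. As the file holds FPKM, limma 3.58.1 (R 4.3.3) with a variance trend was used on log2(FPKM + 1), a scale that understates the change of low genes, for 13435 genes whose mean was 1 FPKM or more, with only genotype in the model. P-values were adjusted by the Benjamini-Hochberg method over all of them and called at 0.05. The fit was tested on simulated data.

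Of the table's gene identifiers, 99.77% were found in GENCODE M21 (GRCm38), 98.33% with the same coordinates, and 61 of the 67 members had the same coordinates. GC content is that of the principal transcript. The members and the lists of related genes and cell markers were chosen with earlier results of these data known. Named genes were the highest and lowest member of each complex by FPKM and those with the smallest p (4 in complex I, 2 in each other). All members of complex II, alternative isoforms with their partners, and the members of smallest and largest spread were also named. Exceptions are stated. Alternatives were other scalings, limma-voom on the recovered reads, other filters, 0.1 as pseudocount, a block for replicate number, leaving out each library and, added after seeing the data, removal of the GC and length trend.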

Additional observations from a re-analysis of the deposited data

Results flagged for a closer look

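In 70 groups of 5 libraries examined, 3 had a library far from the other 4, where chance gives about 3.5, or 1 in 20. Cox8b reached 5.36 FPKM in knockout 5, with 0 to 0.167 FPKM in the other knockout libraries. Sdha was at 169 FPKM in wild-type 1, with 90.1 to 103 FPKM in the other wild-type libraries. Uqcrc1 was at 83.6 FPKM in wild-type 1, with 47.9 to 56.0 FPKM in the others.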

How the results depend on the processing

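No member and no gene passed the adjusted threshold under any alternative run. The members' median difference, 0.10, was 0.092 with upper quartile scaling, 0.12 with scaling by nuclear protein-coding genes, 0.11 with limma-voom, 0.11 at a mean of at least 5 FPKM, 0.11 with a pseudocount of 0.1, and 0.051 with the GC and length trend removed. Leaving out 1 library gave 0.0080 at the least, without wild-type 2, and 0.17 at the most, without wild-type 1. The count of members with an unadjusted p under 0.05 was 0, and ranged from 0 to 1 with 1 library left out; the 1 was Uqcrc1 without wild-type 1, Ndufa4l2 without wild-type 2 and Ndufa12 without knockout 5. Over all genes that count was 544, and 308 (without knockout 3), 916 (without wild-type 1) and 1245 (without knockout 4); without a filter 1096 of 27780 genes had one.

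Correlations between the deviations of same-numbered libraries were 0.31, 0.11, -0.12, -0.34 and -0.040 for numbers 1 to 5. The titles do not say whether the numbers pair the libraries, and these correlations cannot decide it. With the replicate block the members' median was 0.10, with 0 calls and 435 unadjusted genes; the libraries of numbers 1 and 2 correlated best with their own number and those of 3 to 5 did not.

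Directions of small differences turned for 12 named genes, none of them past the threshold. With 1 library left out, differences ranged from -0.096 to 0.21 for Cox4i2, -0.060 to 0.16 for Cox6b1, -0.12 to 0.14 for Cox6b2, -0.17 to 0.20 for Cox7a1, -0.18 to 0.070 for Cox7a2, -0.064 to 0.15 for Cox7b, -0.084 to 0.24 for Cox8a, -0.090 to 0.17 for Ndufa4, -0.042 to 0.18 for Sdha, -0.062 to 0.15 for Sdhc, -0.00034 to 0.16 for Sdhd and -0.015 to 0.19 for Uqcr10. With the GC and length trend removed, differences were -0.014 for Cox4i2, -0.027 for Cox6b2, -0.057 for Cox7a1 and -0.060 for Cox8a. With upper quartile scaling, Cox7a1 was at -0.00020. The cause was not tested. Cox4i2 and Cox7a1 rested on 78 to 115 reads per group, and Cox6a2 and Cox8b on 12 to 33.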

Other observations

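Regulators of mitochondrial biogenesis differed in direction among themselves. Of 15 tested, 5 were higher on average in knockout, with a median difference of -0.044 on the log2(FPKM + 1) scale, and none passed the adjusted threshold. Pprc1, a coactivator of the PGC-1 family, had 6.20 ± 1.43 FPKM in wild type and 4.78 ± 0.690 in knockout (SD, n = 5 each; limma adjusted p = 0.976; unadjusted 0.0470). Ppara, a nuclear receptor for fatty acid oxidation, had 7.995 ± 2.79 FPKM in wild type and 5.95 ± 1.26 in knockout, a difference of -0.34. Esrra, an orphan nuclear receptor of the estrogen receptor family, had 22.1 ± 4.85 FPKM in wild type and 29.3 ± 9.30 in knockout, a difference of 0.35, that of Ppargc1a was 0.20 and that of Tfam 0.11. Nrf1, the gene of the factor whose motif was searched, had 2.90 ± 0.340 FPKM in wild type and 2.70 ± 0.141 in knockout. Esrra, Ppargc1a, Tfam and Nrf1 were named after their values were seen.

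Of 15 citric acid cycle genes, 8 were higher on average in knockout, with a median of 0.016. In knockout 3, where the respiratory chain genes had a median deviation of 0.31, these genes stood at -0.0030, and in wild-type 1 at 0.59. Of 17 genes for mitochondrial pores, import and chaperones, 12 were higher, with a median of 0.037. Of 12 tested hypoxia-induced genes, 4 were higher, with a median of -0.043. None of these genes passed the adjusted threshold.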
